A study of Mus musculus with 6 samples.

Results

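Of the 26123 genes in the liver count table, 44 encode the subunits, assembly chaperones, activators and inhibitor of the standard proteasome, taken as every protein-coding row whose symbol starts with Psma, Psmb, Psmc, Psmd, Psme, Psmf or Psmg followed by a number, without the immunoproteasome genes Psmb8, Psmb9 and Psmb10. The core particle supplied 15 of these genes and the regulatory particle 17, and the remaining 12 encode chaperones, activators and an inhibitor. Whole liver of ICR mice, an outbred stock, was compared between 3 animals labelled control and 3 labelled crizotinib, an inhibitor of the receptor kinases MET, ALK and ROS1. The dose was 300 mg/kg after 7 days of adaptation, and tissue was taken 1 week later. The same account names normal saline and says that the normal group was given crizotinib, against the treatment labels. This leaves the dosed group unclear, so samples were grouped by the treatment label. No allele or transgene is named for either group, and no sex or age of the animals is given here. All 6 livers thus share strain, adaptation and collection time and differ by the treatment label.

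The proteasome is the protease that degrades ubiquitin-tagged proteins in the cytosol and nucleus. Its core particle is a barrel of stacked rings, with outer α rings (Psma genes) that gate the entrance and inner β rings (Psmb genes), in which Psmb5, Psmb6 and Psmb7 carry the catalytic sites. The regulatory particle caps the barrel: a base of ATPases (Psmc genes) and scaffold subunits unfolds the substrate, and a lid of further Psmd subunits holds the deubiquitinase Psmd14. Hepatocytes turn over large amounts of secretory and metabolic enzymes, and proteasome genes are transcribed in nearly all cells, so their messages are present throughout liver tissue.

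All proteasome genes were measured in every library. The 6 libraries held 51123361 to 67947970 counts, and all 44 genes passed the filter that left 16492 genes for testing. Counts per gene and library ran from 24 for Psma8, the α subunit of spermatogenic cells, to 9742 for Psma4. Levels below are CPM, counts relative to the library total after TMM scaling, and are listed in the order of replicates 1, 2 and 3. The mitochondrial genome supplied 44.5%, 7.47% and 17.6% of counts in the controls and 5.67%, 5.53% and 14.4% in the crizotinib livers. Control replicate 1 and crizotinib replicate 3 stood apart from their groups, and values without them are given for the particle medians and for the genes whose call they change. They were singled out from these same data, and leaving them out can narrow the spread within groups. P-values without them are therefore a description. Summed hepatocyte markers were 85672, 70157 and 78639 CPM in controls and 57238, 55867 and 46521 CPM in crizotinib livers. They were far above those of any other cell type examined, as the tissue label implies. The sum was lower in every treated liver, with 0 of 9 markers called, but single markers differed. Alb had 55633, 44767 and 48847 against 14072, 16106 and 23149 CPM, and Fgb 1954, 4871 and 3416 against 28639, 24989 and 4477 CPM. Summed hepatic stellate cell markers were 334, 200 and 375 against 170, 134 and 110 CPM. The part of these sums in the proteasome values was not tested. In whole tissue, fewer cells of a type and less RNA per cell cannot be told apart.

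Promoters are shown for the core genes (Psmb4, Psma5) and regulatory genes (Psmd8, Psmc1) with the smallest p and for the activator genes with the lowest estimates (Psme2, Psme1), as examples of the 3 classes of genes described below. Each is the RefSeq sequence on GRCm38.p6, 5′ to 3′ on the gene's strand, from 180 bases before the annotated start to the first 25 bases of the transcript. Capitals mark matches, on either strand, to TGACNNNGC or TGAGNNNGC (the core of the antioxidant response element, the kind of site bound by Nfe2l1 and Nfe2l2 with small Maf proteins), to GAAANNGAA (the interferon regulatory factor site) or to CCAAT.
Psmb4 (chr3:94886934-94887138, minus strand): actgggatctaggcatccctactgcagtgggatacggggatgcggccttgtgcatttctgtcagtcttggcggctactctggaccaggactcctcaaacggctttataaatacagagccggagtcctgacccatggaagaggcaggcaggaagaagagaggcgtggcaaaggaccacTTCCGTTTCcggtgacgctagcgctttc
Psma5 (chr3:108256746-108256950, plus strand): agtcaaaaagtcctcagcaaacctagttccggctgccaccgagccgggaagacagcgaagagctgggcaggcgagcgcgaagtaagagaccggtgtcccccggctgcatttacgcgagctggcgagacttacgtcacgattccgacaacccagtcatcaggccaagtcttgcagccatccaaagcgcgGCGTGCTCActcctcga
Psmd8 (chr7:29180649-29180853, minus strand): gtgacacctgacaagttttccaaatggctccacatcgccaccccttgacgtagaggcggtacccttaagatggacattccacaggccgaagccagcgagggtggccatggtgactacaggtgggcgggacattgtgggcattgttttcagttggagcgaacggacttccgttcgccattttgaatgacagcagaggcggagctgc
Psmc1 (chr12:100110022-100110226, plus strand): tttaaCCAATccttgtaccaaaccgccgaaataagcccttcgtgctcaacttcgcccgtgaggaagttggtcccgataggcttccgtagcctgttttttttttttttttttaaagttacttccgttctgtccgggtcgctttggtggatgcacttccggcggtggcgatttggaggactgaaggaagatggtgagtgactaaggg
Psme2 (chr14:55591077-55591281, minus strand): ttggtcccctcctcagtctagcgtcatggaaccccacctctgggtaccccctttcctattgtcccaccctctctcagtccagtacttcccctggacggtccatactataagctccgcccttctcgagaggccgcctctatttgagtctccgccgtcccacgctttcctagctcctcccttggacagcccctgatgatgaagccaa
Psme1 (chr14:55578314-55578518, plus strand): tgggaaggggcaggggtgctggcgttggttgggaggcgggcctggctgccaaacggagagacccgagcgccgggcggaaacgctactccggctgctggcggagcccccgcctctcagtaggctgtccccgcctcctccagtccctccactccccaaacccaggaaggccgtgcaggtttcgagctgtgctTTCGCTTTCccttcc
With the start base as position 0, the match in Psmb4 lay at -3 to 5, that in Psma5 at 8 to 16, that in Psmc1 at -175 to -171 and that in Psme1 at 10 to 18. The stretches of Psmd8 and Psme2 held no match to these letters.

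A promoter of 300 bases was listed for 36 of the 44 genes. The antioxidant response element core matched 15 of the 36 (41.7%), beside 27.8% of all 32851 listed promoters. It matched 7 of 11 core, 4 of 14 regulatory and 4 of 11 other promoters. GGGCGG, the GC box, matched 22 (61.1%, beside 35.7% of all), CCAAT matched 12 (33.3%, beside 37.4%), GAAANNGAA matched 6 (16.7%, beside 8.56%) and TTCNNNGAA, the STAT site, matched 2 (5.56%, beside 8.30%). Both strands were searched and each motif was counted on its own, also where matches overlapped. These counts describe letters only, and the annotated starts of Psmd1, Psme1, Psmd13, Psmf1, Psmd5 and Psmd9 lay 232, 371, 426, 2876, 4006 and 58777 bases from the 5′ ends in the deposited table, against at most 69 bases for the other genes.

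None of the 44 proteasome genes passed the test between crizotinib and control livers. With edgeR's quasi-likelihood test and Benjamini-Hochberg adjustment over all 16492 genes, the adjusted p of the 44 ran from 0.280 to 0.981, while 56 genes (0.340%) were called across the table. DESeq2 also called 0 of the 44, beside 1105 genes (6.70%) of the table. At an unadjusted p under 0.05 there was 1 proteasome gene, Psmd10, beside 15.3% of all genes. Fitted changes had a median size of 0.27 on the log2 scale against 0.45 over the table. By class the median size was 0.17 for core, 0.43 for regulatory and 0.40 for the remaining genes, so only core genes were well below the table. The 44 genes were less variable within groups, with a median SD of log2 CPM of 0.402 against 0.508. Their standard errors (median 0.33, against 0.42 over the table) still left wide intervals, so a p above the threshold does not show that levels were equal.

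Of the 44 genes 33 were fitted above 0, beside 50.0% of all genes, and the median log2 fold change was 0.22. This majority rested on control replicate 1 and crizotinib replicate 3: without both, 17 of the 44 were above 0 and the median was -0.16. Without crizotinib replicate 3 alone 23 were above 0, without control replicate 1 alone 25, and with limma voom library weights 22. The groups did not overlap for 5 genes (11.4%, beside 21.0% of all genes), named here after their values were seen. Crizotinib livers were higher for 4 of them, Psmb4, Psmc4, Psmd4 and Psme3, beside 10.7% of all genes. They were lower for 1, the inhibitor Psmf1, beside 10.3% of all genes. The plot of fitted changes shows that the 3 classes of genes were not centred at the same place.

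**Figure D1:**
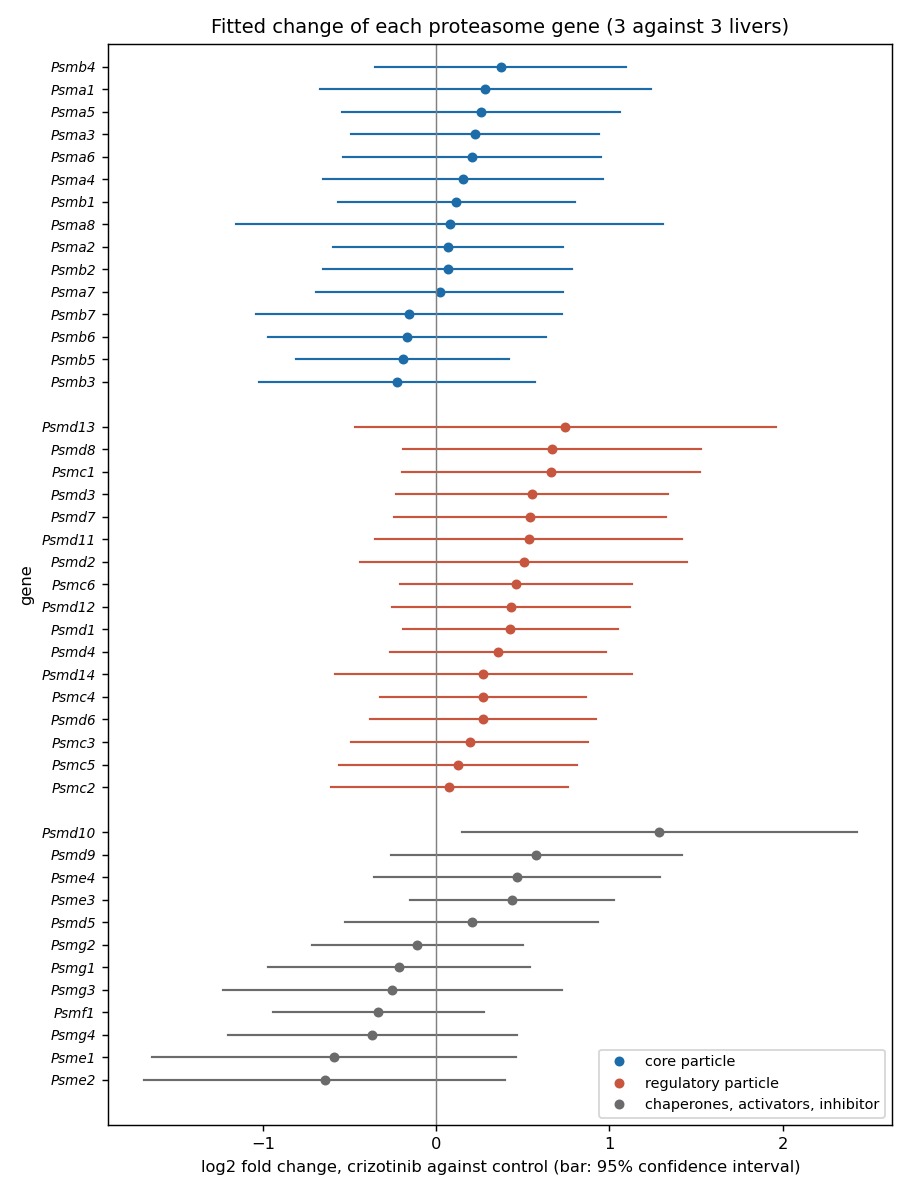
Log2 fold change of crizotinib against control for each of the 44 genes (horizontal axis; points: edgeR estimates, bars: 95% confidence intervals, n = 3 livers per group), ordered within the core particle, the regulatory particle and the remaining genes. All 17 regulatory points lie above 0 (Psmc2 is at -0.0024 with upper-quartile scaling), the 15 core points lie between -0.23 and 0.37, and the interval of every gene except Psmd10 includes 0.

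Core particle genes had estimates close to 0. The median log2 fold change over the 15 genes was 0.08 (1.06-fold), with 11 above and 4 below 0, and none rose or fell (edgeR's quasi-likelihood test, Benjamini-Hochberg adjusted p from 0.605 to 0.981). The sign of that median was not stable: it was -0.0015 with upper-quartile scaling, -0.02 without control replicate 1, -0.22 without crizotinib replicate 3 and -0.19 with limma voom library weights. The 95% intervals of the 15 genes ran from -1.15 to 1.31. The 8 α genes were all fitted above 0, with a median of 0.18, but 5 were with upper-quartile scaling, 4 without control replicate 1, 2 without crizotinib replicate 3, 1 with voom library weights and 0 without both libraries (median -0.24). Of the 7 β genes 3 were above 0 (2 with upper-quartile scaling), with a median of -0.16.

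Among α genes, Psma5 (ENSMUSG00000068749, chr3:108256926-108279974 on GRCm38) had 22.8, 47.4 and 46.4 CPM in controls and 39.0, 42.6 and 57.8 CPM in crizotinib livers. Only control replicate 1 lay below the range of the crizotinib livers, and the change was 0.26 ± 0.35 (SE; edgeR adjusted p = 0.757). Without control replicate 1 it was -0.02. Psma3 had 32.9, 49.0 and 52.4 CPM in controls and 41.4, 47.8 and 67.7 CPM in crizotinib livers, again with the lowest value in control replicate 1 and the highest in crizotinib replicate 3. Psma7, with 98.4, 95.9 and 91.5 against 82.3, 77.3 and 130.2 CPM, had the largest p of the α genes. Its crizotinib replicates 1 and 2 lay below all controls and crizotinib replicate 3 above them, which left a change of 0.02 ± 0.31. Psma8 was barely detected, at 0.646 ± 0.183 CPM in controls and 0.682 ± 0.261 CPM in crizotinib livers (SD, n = 3 each).

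The β gene with the smallest p was Psmb4 (ENSMUSG00000005779, chr3:94884093-94886961), which encodes a subunit without a catalytic site. It had 64.1, 107 and 109 CPM in controls and 119, 119 and 125 CPM in crizotinib livers. The 3 treated livers lay close together just above control replicates 2 and 3, while control replicate 1 was far lower. The change was 0.37 ± 0.31 with a 95% interval of -0.35 to 1.10 (edgeR adjusted p = 0.605). Psmb2, which also lacks a catalytic site, had 37.0, 45.1 and 49.3 against 33.8, 40.3 and 63.4 CPM and the largest p of the β genes; its sign was negative with upper-quartile scaling. The treated values enclosed those of the controls.

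The 3 catalytic genes all had estimates slightly below 0. Psmb5, which carries the chymotrypsin-like site, had 24.98, 22.3 and 29.4 CPM in controls and 18.2, 20.8 and 28.1 CPM in crizotinib livers, a change of -0.19 ± 0.27 with an interval of -0.81 to 0.42 (edgeR adjusted p = 0.763). Crizotinib replicates 1 and 2 were below every control and crizotinib replicate 3 was among them. Psmb6, with the caspase-like site, had 121, 76.1 and 91.0 against 65.0, 72.9 and 118 CPM, a change of -0.17 ± 0.35 (edgeR adjusted p = 0.844). Here control replicate 1 was the highest of all libraries, and without it the change was 0.03. Psmb7, with the trypsin-like site, had 30.9, 68.1 and 72.2 against 39.8, 48.3 and 65.4 CPM, a change of -0.16 ± 0.38 (edgeR adjusted p = 0.869). Control replicate 1 was its lowest library, opposite to Psmb6, so the catalytic genes did not share 1 order of livers. Psmb7 overlaps Nek6 on the opposite strand, whose counts were the larger (25104 against 19010 over the 6 libraries), and no strand setting is given for the counting.

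Regulatory particle genes had higher estimates than core genes. All 17 were fitted above 0 (16 with upper-quartile scaling, Psmc2 being at -0.0024), beside 50.0% of all genes, with a median of 0.43 on the log2 scale (1.35-fold) and a range of 0.08 to 0.74. These 17 are the genes taken by symbol. The lid subunit Sem1 and the base receptor Adrm1, outside the symbol rule, were at -0.53 ± 0.38 and 0.66 ± 0.26. None of the 17 rose at the threshold (edgeR's quasi-likelihood test, Benjamini-Hochberg adjusted p from 0.436 to 0.920). The 95% intervals of the 17 genes ran from -0.61 to 1.96. Under 17 other settings 12 to 17 of the 17 stayed above 0, and the median lay between 0.18 and 0.65. The lowest of these came from leaving out control replicate 1 and crizotinib replicate 3 together, with 12 genes above 0. By place in the particle the median was 0.23 for the 6 ATPases, 0.43 for the 3 scaffold and receptor genes of the base and 0.54 for the 8 lid genes. Without both libraries these medians were -0.02, 0.19 and 0.34.

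Psmc1 (ENSMUSG00000021178, chr12:100110154-100123405), an ATPase whose tail docks into the α ring, had 30.0, 71.6 and 52.9 CPM in controls and 90.0, 92.0 and 62.5 CPM in crizotinib livers. Crizotinib replicates 1 and 2 were above every control, crizotinib replicate 3 lay between control replicates 2 and 3, and the change was 0.66 ± 0.37 with an interval of -0.20 to 1.52 (edgeR adjusted p = 0.438). The ATPase Psmc6 had 46.2, 67.2 and 52.7 against 63.5, 72.5 and 92.5 CPM, a change of 0.46 ± 0.29 (edgeR adjusted p = 0.487). Its highest liver was crizotinib replicate 3, and only control replicate 2 reached into the range of the treated livers. Psmc2 had the largest p of the ATPases, at 65.3, 75.8 and 78.3 against 63.3, 66.7 and 101 CPM, with crizotinib replicates 1 and 2 near control replicate 1 and crizotinib replicate 3 above every control. Psmc4, whose groups did not overlap, had 53.3, 64.2 and 61.5 and 67.4, 66.4 and 82.1 CPM, a gap between the groups smaller than the spread within either.

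In the base, Psmd1, a large scaffold subunit, had 48.8, 65.4 and 50.3 CPM in controls and 63.5, 77.9 and 79.7 CPM in crizotinib livers, a change of 0.43 ± 0.27 (edgeR adjusted p = 0.489). Control replicate 2 was the single control that exceeded the lowest treated liver. Psmd4, a receptor for ubiquitin chains, had 73.0, 77.0 and 70.6 against 85.5, 84.9 and 112 CPM, a change of 0.36 ± 0.27 (edgeR adjusted p = 0.564). Its controls were tightly grouped and all 3 treated livers were above them, most of all crizotinib replicate 3. Psmd2, the scaffold on which shuttle factors dock, had 40.8, 121 and 87.7 against 125, 117 and 112 CPM, a change of 0.51 ± 0.41 (edgeR adjusted p = 0.590). Treated livers were alike for this gene, and the controls were spread widely, with control replicate 2 among the treated values.

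The lid gene with the smallest p was Psmd8 (ENSMUSG00000030591, chr7:29174188-29180673), which had 39.1, 73.0 and 75.2 CPM in controls and 119.8, 110.4 and 67.4 CPM in crizotinib livers. As for Psmc1, crizotinib replicates 1 and 2 exceeded every control and crizotinib replicate 3 did not, and the change was 0.67 ± 0.37 with an interval of -0.19 to 1.53 (edgeR adjusted p = 0.436). Psmd3, a lid subunit, had 45.4, 94.9 and 63.6 against 111, 101 and 87.0 CPM, a change of 0.55 ± 0.34 (edgeR adjusted p = 0.480), with control replicate 2 inside the treated range. Psmd14, the deubiquitinase that removes ubiquitin chains before degradation, had 15.5, 34.2 and 36.0 against 27.7, 31.7 and 44.2 CPM. Control replicate 1 was far below the other 5 livers, which overlapped, and without it the change was -0.03 in place of 0.27. The highest estimate of the regulatory genes, 0.74 ± 0.53 for the lid gene Psmd13, rested on a control mean of 35.0 ± 21.7 CPM (SD, n = 3) in which control replicate 1 had 11.1 CPM. Psmd13 overlaps Sirt3 and Psmc3 overlaps Slc39a13 on the opposite strand. On the same strand, Psmd13 also overlaps Gm15542 (3144 counts against 16163), and the core gene Psma2 overlaps AW209491 (3739 against 16978).

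**Figure D2:**
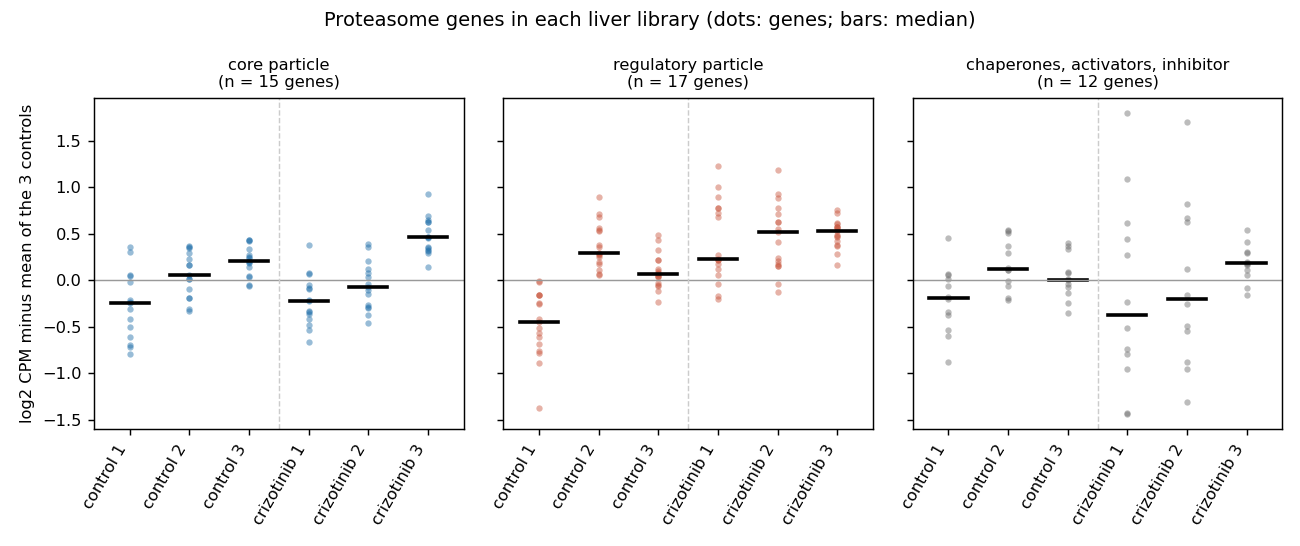
Deviation of each gene's log2 CPM from its mean over the 3 controls (vertical axis) in each library (horizontal axis), for core, regulatory and remaining genes; dots are genes and bars are medians. Regulatory medians are 0.23, 0.52 and 0.53 in the crizotinib libraries, while core medians are -0.22, -0.07 and 0.47, so the particles separate in crizotinib replicates 1 and 2 and not in replicate 3.

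The particles did not keep the same balance in every liver. The median core deviation from the control mean was -0.24, 0.05 and 0.21 in the controls and -0.22, -0.07 and 0.47 in the crizotinib livers on the log2 scale. The regulatory median was -0.45, 0.30 and 0.07 in the controls and 0.23, 0.52 and 0.53 in the crizotinib livers. Regulatory medians were thus above the control mean in all 3 treated livers, although crizotinib replicate 1 stayed below control replicate 2, and core medians in crizotinib replicate 3 alone. Over all genes the same median stayed between -0.02 and 0.07 in the 6 libraries.

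The regulatory median exceeded the core median by 0.45 and 0.59 in crizotinib replicates 1 and 2 and by 0.07 in crizotinib replicate 3. In the controls the difference was -0.21, 0.25 and -0.14. Summed CPM gave the same order of livers apart from crizotinib replicates 1 and 2, with a ratio of regulatory to core of 0.881, 1.24 and 0.967 in the controls and 1.56, 1.44 and 1.03 in the crizotinib livers. Crizotinib replicates 1 and 2 were outside the range of the controls and crizotinib replicate 3 was inside it, so the groups overlapped. The difference between the particle medians of the fitted changes was 0.35 and stayed between 0.23 and 0.57 under the 17 other settings.

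Single livers held many of the extremes in both particles. Control replicate 1 was the lowest of the 6 libraries for 14 of the 17 regulatory and 7 of the 15 core genes, and crizotinib replicate 1 was the lowest for 6 core genes. Crizotinib replicate 3 was the highest for 11 core and 10 regulatory genes. Without control replicate 1 the regulatory and core medians were 0.23 and -0.02, and 15 of 17 regulatory genes were above 0. Without crizotinib replicate 3 they were 0.35 and -0.22, and without both libraries 0.18 and -0.30. Control replicate 1 was also the library with the largest mitochondrially encoded share. With those genes removed before scaling the medians were 0.41 and 0.05.

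Transcript length moved with the contrast as well. The gene models of regulatory genes had a median length of 3117 bases and those of core genes 2618, and Spearman's rho between the fitted change and length over the 44 genes was 0.34, a description across genes of the same 6 libraries. Per library, rho between a gene's deviation and its length was -0.21, 0.34 and -0.12 in the controls and 0.34, 0.33 and 0.09 in the crizotinib livers. Over 16470 of the tested genes the corresponding rho was 0.0062, 0.052 and -0.11 in the controls. It was 0.13, 0.14 and -0.082 in the crizotinib livers. Control replicate 2 and crizotinib replicates 1 and 2, with the highest rho, were also the 3 livers with the highest ratio of regulatory to core CPM. With offsets for length and GC content, added after the data were seen, the regulatory and core medians were 0.49 and 0.09. The offsets were fitted over all genes, where rho reached 0.14, and not over the 44, where it reached 0.34. They could therefore leave the relation within the 44 genes in place. The part of length in the distance between the particles was not tested.

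The 3 dedicated chaperones of the base had a median log2 fold change of 0.58, which is the value of Psmd9, next to the 0.54 of the lid genes. Without crizotinib replicate 1 it was 0.26. Psmd10, also known as gankyrin, a base chaperone known as an oncoprotein in human liver cancer (ENSMUSG00000031429, chrX:140948429-140956728), had 3.15, 8.43 and 7.32 CPM in controls and 20.2, 18.8 and 7.14 CPM in crizotinib livers. Crizotinib replicates 1 and 2 had levels far above any control, and crizotinib replicate 3 was among the controls. The change was 1.29 ± 0.49 with an interval of 0.15 to 2.43, and an unadjusted p of 0.0316 became an adjusted p of 0.280 (edgeR). It passed with limma voom library weights (1.34, adjusted p = 0.0239, beside 19.5% of all genes called) and by edgeR without control replicate 1 and crizotinib replicate 3 together (1.29, adjusted p = 0.0231, beside 10.3% of all genes called).

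Psmd9, another base chaperone, had 10.8, 18.1 and 14.1 against 29.9, 21.7 and 12.5 CPM, with crizotinib replicates 1 and 2 above all controls and crizotinib replicate 3 within them (change 0.58 ± 0.36, edgeR adjusted p = 0.490). Its row overlaps Hpd, an abundant liver gene on the opposite strand with 402383 counts against 6028, so its value is uncertain. Psmd5, the third base chaperone, had 12.2, 26.5 and 19.9 against 22.5, 20.3 and 24.7 CPM and overlaps Cutal. Treated livers lay within the control range for Psmd5, where only control replicate 1 stood apart.

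**Figure D3:**
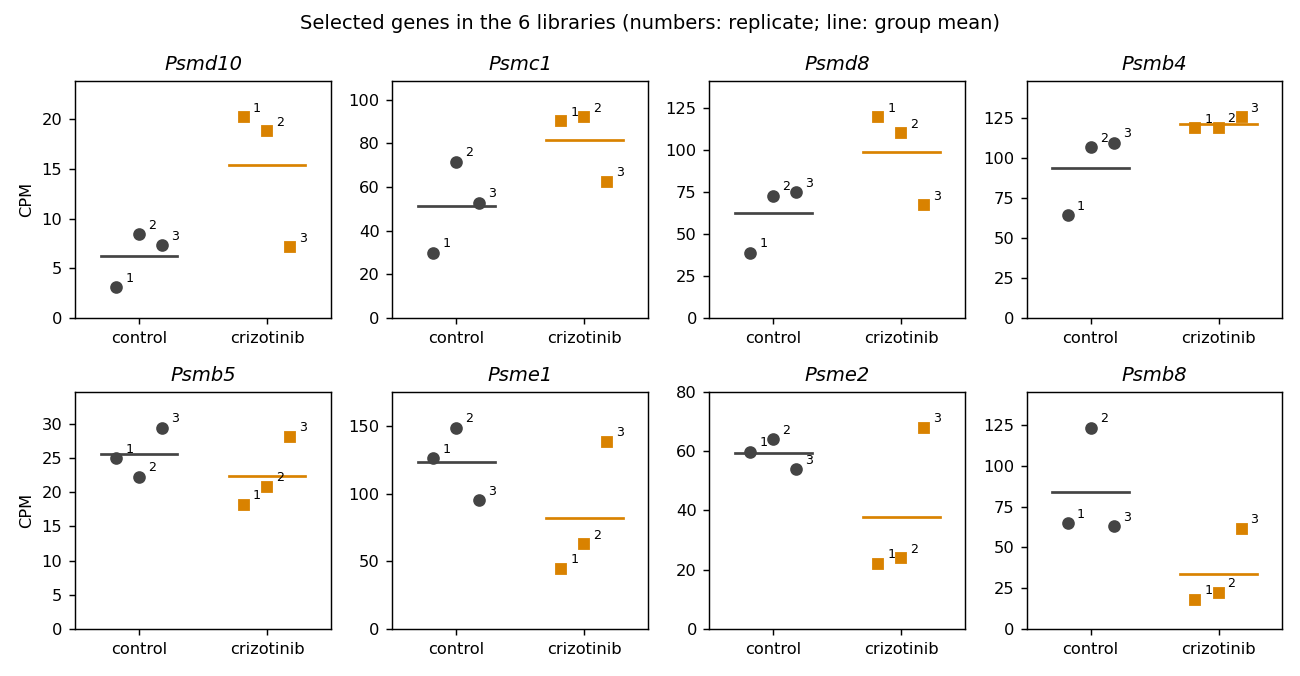
CPM (vertical axis, from 0) of 8 genes in control and crizotinib livers (horizontal axis); points are libraries with their replicate numbers and lines are group means. Crizotinib replicate 3 lies with or near the controls for Psmd10, Psme1, Psme2 and Psmb8, at 7.14, 138, 67.9 and 61.4 CPM, while crizotinib replicates 1 and 2 lie outside the control range.

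Estimates for the activators and the inhibitor lay on both sides of 0. Psme1 and Psme2 form the interferon-inducible activator ring that opens the core particle without ATP. Psme2 (ENSMUSG00000079197, chr14:55587441-55591113) had 59.9, 64.0 and 53.9 CPM in controls and 22.0, 23.9 and 67.9 CPM in crizotinib livers. Psme1 (ENSMUSG00000022216, chr14:55578123-55581528), which lies close to Psme2 on the same chromosome, had 126, 149 and 95.1 and 44.6, 62.7 and 138 CPM. Crizotinib replicates 1 and 2 were below every control for both genes, and crizotinib replicate 3 was above all controls for Psme2 and within them for Psme1. The changes were -0.64 ± 0.45 for Psme2 and -0.59 ± 0.46 for Psme1, with intervals of -1.69 to 0.40 and -1.64 to 0.46 (edgeR adjusted p = 0.533 and 0.571). Without crizotinib replicate 3, Psme2 fell by 1.39 ± 0.25 on the log2 scale (edgeR adjusted p = 0.0219), the single gene of the 44 that passed when 1 library was left out, beside 8.83% of all genes in that fit. Psme1 was then at -1.22 ± 0.33 (edgeR adjusted p = 0.0647). The FPKM ratio of Psme2 to Psme1 was 0.593, 0.539 and 0.710 in the controls and 0.616, 0.475 and 0.614 in the crizotinib livers, so the groups overlapped (two-sided exact permutation p = 0.6, where 0.1 is the smallest that 3 against 3 allows).

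Psme3, the nuclear activator, had 27.8, 35.0 and 33.9 CPM in controls and 43.6, 51.1 and 36.2 CPM in crizotinib livers, with no overlap between the groups. The change was 0.44 ± 0.26 with an interval of -0.15 to 1.03 (edgeR adjusted p = 0.454). Psmf1, an inhibitor of the core particle in vitro, had 39.4, 44.5 and 40.0 against 24.6, 34.5 and 39.0 CPM. Its groups did not overlap, although crizotinib replicate 3 lay just below the lowest control, and the change was -0.34 ± 0.26 (edgeR adjusted p = 0.580).

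Genes for the chaperones of the core particle were all fitted below 0, with a median of -0.23 over 4 genes, in contrast to those of the base. Psmg4 had 9.68, 6.12 and 5.95 CPM in controls and 4.07, 4.82 and 7.91 CPM in crizotinib livers, a change of -0.37 ± 0.36 (edgeR adjusted p = 0.661). Psmg1 had 12.8, 15.4 and 21.3 against 11.3, 11.5 and 19.8 CPM, and Psmg2, its partner in α ring assembly, had 12.0, 12.0 and 17.7 against 11.6, 12.3 and 14.8 CPM. For Psmg1 and Psmg4 crizotinib replicates 1 and 2 were below every control and crizotinib replicate 3 was among them, as for Psmb5. The sign of Psmg1 and Psmg2 was positive without control replicate 3, and that of Psmg2 also on the log2(FPKM + 1) scale, and without crizotinib replicate 1 another of the 4 was above 0 and the median was -0.06. Pomp, the maturation factor of the core particle outside the Psm names, had 65.3, 74.3 and 89.0 CPM in controls and 36.3, 49.3 and 119 CPM in crizotinib livers (change -0.16 ± 0.45, edgeR adjusted p = 0.888). Crizotinib replicates 1 and 2 were again below and crizotinib replicate 3 above all controls.

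The immunoproteasome genes, which replace the catalytic subunits after interferon exposure and in immune cells, had the lowest estimates of the related lists, with a median of -1.07 over 3 genes and none past the test with all 6 libraries. Psmb8 had 64.9, 123.2 and 62.8 CPM in controls and 17.9, 22.1 and 61.4 CPM in crizotinib livers, a change of -1.31 ± 0.53 (edgeR adjusted p = 0.298). Psmb9 had 35.1, 43.8 and 29.4 against 5.31, 5.33 and 40.9 CPM and Psmb10 37.1, 59.4 and 37.9 against 19.95, 22.7 and 61.9 CPM. In crizotinib replicates 1 and 2 all 3 genes were below every control, and crizotinib replicate 3 was at or near control levels. Without crizotinib replicate 3, Psmb8 fell by 2.08 ± 0.39 and Psmb9 fell by 2.78 ± 0.29 on the log2 scale (edgeR adjusted p = 0.0250 and 0.00480, beside 8.83% of all genes called), and Psmb10 was at -1.08 ± 0.30 (edgeR adjusted p = 0.0698). Without both libraries all 3 fell, at -2.25, -2.81 and -1.21 (edgeR adjusted p = 0.0240, 0.00827 and 0.0496, beside 10.3% of all genes called). Crizotinib replicate 3 was the treated liver at or near control levels, so leaving it out by itself lowers the estimates. The p-values of these reduced fits are no independent support for a fall. With voom library weights Psmb8 and Psmb9 passed (limma adjusted p = 0.0144 and 0.0104, beside 19.5% of all genes called).

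Set against the constitutive subunit that each replaces, the FPKM ratio of Psmb8 to Psmb5 was 0.691, 1.47 and 0.568 in the controls and 0.261, 0.282 and 0.581 in the crizotinib livers (two-sided exact permutation p = 0.2). For Psmb9 to Psmb6 it was 0.148, 0.294 and 0.165 against 0.0412, 0.0370 and 0.177 (exact permutation p = 0.3). For Psmb10 to Psmb7 it was 2.41, 1.75 and 1.05 against 1.002, 0.942 and 1.90 (exact permutation p = 0.4). All 3 ratios were thus lowest in crizotinib replicates 1 and 2, and 3 against 3 livers allow no p below 0.1. Summed Kupffer cell markers were 393, 384 and 497 CPM in controls and 67.7, 40.6 and 72.1 CPM in crizotinib livers, with 6 of 11 past edgeR's test and lower and none at 0 in every library. Summed T and NK cell markers were 10.3, 7.86 and 10.6 against 1.85, 1.38 and 2.13 CPM, with 0 of 8 past the test. Both marker sums were low in all 3 treated livers, crizotinib replicate 3 included, and their part in the values of Psme1, Psme2 and the immunoproteasome genes was not tested. Neutrophil markers summed to 1.95, 3.82 and 1.499 CPM in controls and 19.2, 9.48 and 2.22 CPM in crizotinib livers, highest where these genes were lowest. The neutrophil sum was mostly S100a8 and S100a9. S100a8 had 0.532, 0.856 and 0.297 against 7.53, 3.18 and 0.317 CPM, and S100a9 1.11, 1.62 and 0.511 against 9.40, 4.92 and 0.952 CPM. The groups overlapped for both, and also for Retnlg, Mpo and Elane. Summed erythroid markers were 993, 288 and 258 CPM in controls and 31.7, 54.7 and 197 CPM in crizotinib livers, with 0 of 6 past the test and none at 0 in every library. Like Psme1, Psme2 and the immunoproteasome genes, the erythroid sum was lowest in crizotinib replicates 1 and 2. Summed cholangiocyte markers were 82.3, 54.9 and 103 against 166, 180 and 94.9 CPM, with 0 of 5 past the test. Most of this sum was Spp1, at 79.6, 50.5 and 99.0 against 153, 148 and 89.7 CPM. Krt7, Krt19 and Epcam reached at most 1.99 CPM in any library. The part of the neutrophil, erythroid and cholangiocyte sums in the genes that set crizotinib replicates 1 and 2 apart, Psmd10 and Atf6 included, was not tested either.

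Factors that bind the proteasome had mostly positive estimates. Of 12 proteasome-bound factors 9 were fitted above 0, with a median of 0.27, and none rose or fell with edgeR. With voom library weights Zfand2a and Ube3c rose (limma adjusted p = 0.0286 and 0.0362, beside 19.5% of all genes called). Adrm1, a ubiquitin receptor of the base, had 44.9, 56.3 and 48.7 CPM in controls and 87.7, 69.96 and 79.0 CPM in crizotinib livers. All treated livers were above all controls, crizotinib replicate 3 included, and the change was 0.66 ± 0.26 (edgeR adjusted p = 0.290). Ublcp1, a phosphatase of the particle, had 5.74, 8.10 and 7.04 against 10.1, 10.97 and 10.5 CPM without overlap (change 0.59 ± 0.25, edgeR adjusted p = 0.319). The stress-inducible factor Zfand2a and the ligase Ube3c were at 0.91 ± 0.42 and 0.81 ± 0.41. The proteasome-bound deubiquitinases stood near 0, Usp14 at 0.25 ± 0.29 and Uchl5 at -0.26 ± 0.39, and the small lid subunit Sem1 stood at -0.53 ± 0.38.

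The list of genes tied to transcription of the proteasome, which also holds genes of the endoplasmic reticulum, had a median of 0.57. Of its 11 genes 8 were above 0 and none passed the test. Below 0 were Nfe2l2 (-0.43 ± 0.42), Nfe2l3 (-0.48 ± 0.88) and Mafg (-0.28 ± 0.36), named here after their values were seen. Nfe2l1 encodes the factor that induces proteasome genes when proteasome activity is blocked. It had 47.4, 76.4 and 55.3 CPM in controls and 72.5, 96.4 and 97.8 CPM in crizotinib livers, with control replicate 2 inside the treated range (change 0.57 ± 0.30, edgeR adjusted p = 0.414). Syvn1, the ubiquitin ligase of the endoplasmic reticulum, had 53.3, 48.6 and 52.4 against 108, 88.2 and 90.2 CPM, a change of 0.89 ± 0.26 and the smallest adjusted p among all listed genes (0.183, edgeR). Its treated livers were clearly apart from tightly grouped controls. Ngly1, which deglycosylates Nfe2l1, had 15.9, 23.8 and 22.3 against 30.3, 34.0 and 27.7 CPM, also without overlap. Atf6, a sensor of endoplasmic reticulum stress, had 12.5, 25.9 and 19.5 against 57.1, 56.3 and 20.03 CPM (change 1.21 ± 0.46, edgeR adjusted p = 0.272), high in crizotinib replicates 1 and 2 and at control level in crizotinib replicate 3. Atf6 rose without crizotinib replicate 3 (1.54 ± 0.32, edgeR adjusted p = 0.0336), without both libraries (1.30, edgeR adjusted p = 0.0279) and with voom library weights (1.39, limma adjusted p = 0.0166). Of all genes, 8.83%, 10.3% and 19.5% were called in these fits. Syvn1 passed with DESeq2 (adjusted p = 0.0222, beside 6.70% of all genes called) and with voom library weights (limma adjusted p = 0.0201, beside 19.5%). The small Maf gene Mafk was at 0.72 ± 0.33.

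Upstream of the particle, 10 of 11 genes for Vcp, the segregase that extracts ubiquitin-tagged proteins, and its cofactors were fitted above 0, with a median of 0.51 and none past the test. With voom library weights Plaa, Nploc4 and Ufd1 rose (limma adjusted p = 0.0257, 0.0352 and 0.0442, beside 19.5% of all genes called). Plaa had 15.6, 35.8 and 26.9 CPM in controls and 54.9, 59.2 and 35.2 CPM in crizotinib livers (change 0.93 ± 0.37, edgeR adjusted p = 0.292), with crizotinib replicate 3 just below control replicate 2. Ufd1, Ubxn4 and Nploc4 were at 0.47 ± 0.23, 0.58 ± 0.30 and 0.79 ± 0.44. Of the 6 shuttle factors, which carry tagged proteins to the proteasome, 5 were above 0, with a median of 0.37 and none past the test. Ubqln2 had 5.87, 17.1 and 12.6 against 34.0, 26.3 and 17.3 CPM without overlap, a change of 1.12 ± 0.43 (edgeR adjusted p = 0.277). With voom library weights it passed (limma adjusted p = 0.0295, beside 19.5% of all genes called). Ubqln1 and Rad23b were at 0.45 ± 0.34 and 0.36 ± 0.34.

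Ubiquitin genes and the enzymes that charge ubiquitin had a median of 0.20, with 8 of 13 above 0 (7 with upper-quartile scaling) and none past the test. The median was -0.04 without control replicate 1. Ube2k, Rps27a and Ube2s had estimates of 0.59 ± 0.31, 0.57 ± 0.33 and 0.44 ± 0.25.

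Transcript levels of the subunits differed several-fold within each particle, although the assembled particle holds its subunits in fixed numbers. Levels here are CPM divided by the length of the gene model in kilobases, and are compared between genes on that scale only. In controls the highest core genes were Psmb6 at 46.5 ± 11.1 and Psmb4 at 43.3 ± 11.8, and the lowest, leaving out Psma8, were Psma2 at 11.9 ± 0.696 and Psma3 at 10.4 ± 2.42 (SD, n = 3 each). The highest was 4.47 times the lowest. Among regulatory genes Psmc5 was highest at 34.1 ± 5.79 and Psmd11 lowest at 6.69 ± 3.25, a ratio of 5.09, with Psmc3 at 27.9 ± 6.41 and Psmd1 at 6.83 ± 1.14 next to them.

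Neighbours in these orders were mostly not separated. Of the 13 neighbouring pairs of core genes 4 kept their order in all 3 controls, and of the 16 regulatory pairs 1 did. The 4 highest regulatory genes were ATPases, and the scaffold gene Psmd1 and the lid gene Psmd11 were lowest. Across libraries the whole order was similar, with Spearman's rho over genes of 0.635 to 0.991 for core and 0.640 to 0.983 for regulatory genes in the 15 library pairs, given as a description. In crizotinib livers Psmb4 was the highest core gene at 56.1 ± 1.78, and Psmc1 reached 38.2 ± 7.71, next to Psmc5 at 37.2 ± 10.1. The gene model counts every annotated exon, so a gene with long, rarely used exons is understated on this scale.

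**Figure D4:**
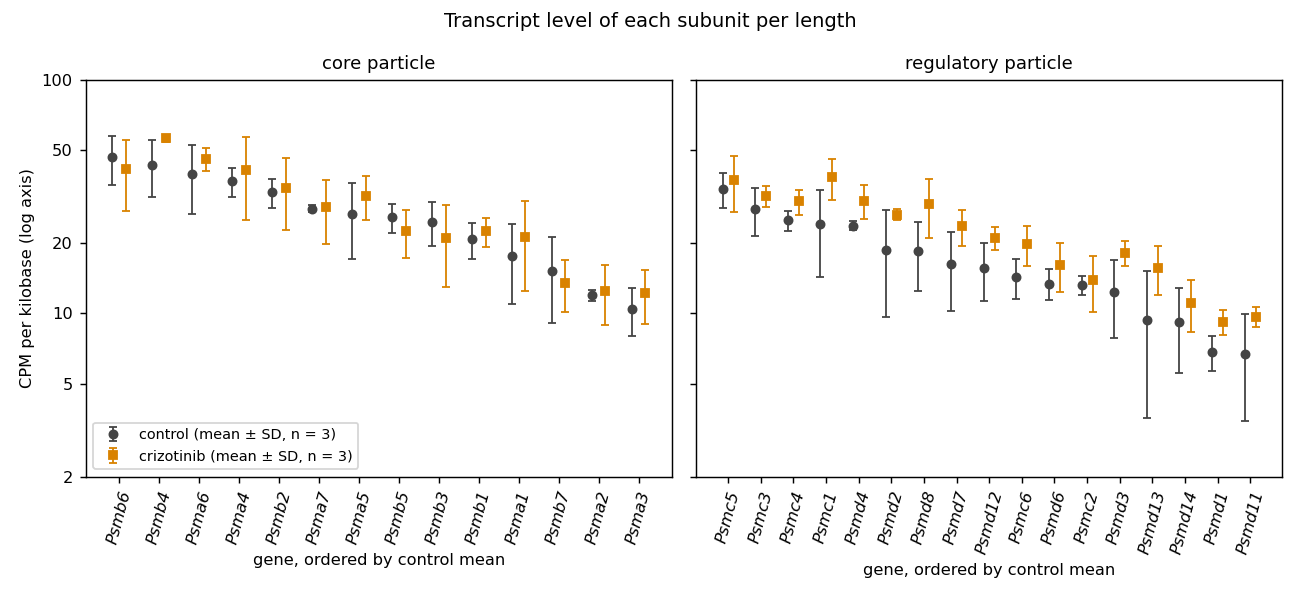
Level per length of 14 core and 17 regulatory genes in control and crizotinib livers (vertical axis: CPM per kilobase, log axis; horizontal axis: genes ordered by control mean; points and bars: mean ± SD, n = 3). Psma8, far below the others, is not drawn. Core genes span 10.4 to 46.5 and regulatory genes 6.69 to 34.1 in controls, and the bars of most neighbouring genes overlap.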

How the data were processed

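Liver mRNA was sequenced from 3 control and 3 crizotinib mice. A Qiagen RNeasy kit was used per the labels' protocols, and 1.3 µg of RNA per library entered a SMARTer mRNA kit. The table deposited by the authors gives for 26123 genes and each library, per the file headers, read counts and FPKM (fragments corrected for gene length and depth). The deposited counts were whole and not normalized. The sources used here name no aligner, counter, annotation or strand setting. Gene boundaries of 89.6% of the gene identifiers found in GENCODE vM21 matched it, so positions are on GRCm38, also for 38 of the 44 proteasome genes; those of Psma7, Psma8, Psmd8, Psmd9, Psmd13 and Psme1 are as deposited.

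Counts were TMM-scaled (trimmed mean of M values), filtered with filterByExpr (minimum count 10, minimum total 15), which removed at most 0.0553% of any library, and tested with edgeR 4.0.16 (quasi-likelihood, two-sided) in R 4.3.3, with Benjamini-Hochberg adjustment over 16492 genes and a threshold of 0.05. Each library is 1 mouse, so p-values measure the spread between these livers. Deviations used log2(CPM + 0.01), and levels per length used the gene length implied by the deposited FPKM. Ratios of FPKM were compared by exact permutation over 20 labelings. The steps were tested on simulated data.

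The genes, roles and lists, written from general knowledge, were chosen with earlier results of these data known. Values in each library are given for the 2 genes with the smallest p and the 1 with the largest p in each role, for the catalytic genes, for listed genes with the smallest p (up to 4 a list), and for Psmb8, Psmb9, Psmb10, Pomp, Nfe2l1, Adrm1, Sem1, Usp14 and Uchl5; genes named as extremes of a range or order, and Psma8, Psmc3, Psmc4 and Psmd13, were chosen after their values were seen. Promoters were matched by symbol. Alternatives were DESeq2 1.42.0, other scaling factors, no filter, the replicate number as a block, each library left out, limma 3.58.1 (voom with library weights, and log2(FPKM + 1) or log2(FPKM + 0.1)), the mitochondrial genes taken out, and control replicate 1 and crizotinib replicate 3 both left out. Offsets for length and GC content were added after the data were seen. Psmb11, Paaf1 and Ddi1 were not analysed here, and values of some other listed genes are not reported here.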

Additional observations from a re-analysis of the deposited data

How the results depend on the processing

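No core or regulatory gene passed the test under any of the 17 alternatives. Over the named genes 869 values kept their sign and side of the threshold, 23 kept their sign and passed it, and 44 changed sign; the cause was not tested. The count over all genes moved most: 1105 with DESeq2, 3217 with limma voom library weights and 1718 without control replicate 1 and crizotinib replicate 3 together. Leaving out 1 library gave 0 to 1504 calls, the most without crizotinib replicate 3. Without control replicate 1 or 3 edgeR called 0, with 1985 and 1705 genes at an unadjusted p under 0.05. Among chaperones, activators and inhibitor, 2 genes (Psmd10 and Psme2) were called with voom weights and 2 without both libraries, and 0 to 1 with 1 library left out. Of all genes, 19.5% were called with voom weights and 10.3% without both libraries. The core median was -0.30 without both libraries.

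Replicate numbers are shared by the groups in the titles, but nothing ties equal numbers to a litter, batch or day, and deviations of equal numbers correlated at -0.149, 0.164 and -0.0902 across genes. With the replicate block edgeR called 0 genes, 2068 at an unadjusted p under 0.05, and Psma7 stood at -0.022.

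With voom weights the sign reversed for Psma3 (-0.054), Psma5 (-0.019), Psma7 (-0.19), Psmb2 (-0.24), Psmc2 (-0.17), Psmd14 (-0.053) and Usp14 (-0.0091). Without both libraries it reversed for Psma3 (-0.21), Psma5 (-0.22), Psma7 (-0.26), Psmb2 (-0.37), Psmc2 (-0.27), Psmd14 (-0.27), Psmd5 (-0.14) and Usp14 (-0.16). Upper-quartile factors gave -0.060 for Psma7, -0.012 for Psmb2 and -0.0024 for Psmc2, and removal of mitochondrially encoded genes gave -0.0061 for Psma7. On log2(FPKM + 1) and log2(FPKM + 0.1) Psmb6 was 0.0032 and 0.0017, Psmb7 0.079 and 0.10, and Psmg2 0.080 and 0.098. The median of all genes was 0.16 on log2(FPKM + 0.1). With 1 library left out, the range was -0.019 to 0.37 for Psma3, -0.022 to 0.40 for Psma5, -0.27 to 0.16 for Psma7, -0.26 to 0.25 for Psmb2, -0.50 to 0.026 for Psmb6, -0.46 to 0.040 for Psmb7, -0.19 to 0.20 for Psmc2, -0.033 to 0.47 for Psmd14, -0.053 to 0.46 for Psmd5, -0.55 to 0.0091 for Psmg1, -0.24 to 0.095 for Psmg2, -0.85 to 0.14 for Pomp and -0.029 to 0.40 for Usp14.

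Depth was ample for these genes, with at least 142 counts in every library outside Psma8. The limit is 3 livers a group with spread among them, so intervals reach 1.96 on the log2 scale for regulatory genes.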
